A study of Homo sapiens with 6 samples.

Results

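The data described here are the mRNA levels of 30 genes of cholesterol synthesis, uptake and efflux in THP-1 cells, a human acute myeloid leukemia (AML) line of monocytic character, with and without knockdown of the transcription factor NFIC. The genes were taken by symbol from a list of the pathway, and all 30 were found among the 33981 genes of the count table and passed the filter on low counts that left 19182 genes for testing. The list does not hold every gene of the pathway. Both groups of 3 samples were THP-1 cells infected with a lentivirus, sorted for GFP 4 days later and sequenced as bulk RNA. The control samples C1, C3 and C4 carried scrambled shRNA, and the samples N1, N2 and N3 carried shRNA against NFIC. This follows the labels and the study's results text, whereas its methods describe the control vector as carrying GFP only. The study's results text names the controls C1, C2 and C4, whereas the labels name C1, C3 and C4. The sources also differ on the medium (IMDM in the labels, RPMI in the methods). The comparison therefore rests on 1 cell line, 1 shRNA against NFIC and 1 time point. Whether the 3 samples of a group came from separate cultures is not given in the sources used here, so the p-values measure the spread between these samples, which may be technical.

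Cholesterol is built from acetyl-CoA in the cytosol and endoplasmic reticulum (ER). The mevalonate steps make isoprenoid units, squalene synthase joins farnesyl groups into squalene, and a series of sterol enzymes turns the cyclised product into cholesterol. The SREBP transcription factors drive these genes when ER sterol is low: SCAP escorts SREBP to the Golgi for cleavage, and the INSIG proteins hold it back when sterol is plentiful. Cells also take in lipoprotein cholesterol, release it from the lysosome through NPC1 and NPC2, store it as esters, and export it through the ABCA1 and ABCG1 transporters, which the oxysterol-sensing LXR receptors switch on. In monocytes and macrophages, handling of incoming lipid makes the uptake and efflux arms prominent.

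With NFIC knockdown, 16 of the 30 genes were higher, 3 were lower and 11 did not pass the test (edgeR quasi-likelihood test, Benjamini-Hochberg adjusted p under 0.05 over all genes tested). The knockdown changed much of the transcriptome: 59.9% of all genes tested passed in either direction, 29.6% higher and 30.3% lower. The 19 of 30 called genes were therefore close to the share over all genes, while the split between higher and lower was uneven in the list and nearly even over all genes. The median log2 fold change was 0.33 over the 30 genes and -0.011 over all genes tested. ABCA1, IDI1, MSMO1, NPC2, FDPS, ABCG1 and STARD4 rose by more than 0.8 on the log2 scale, and PMVK, EBP and SREBF1 fell. In 20 of the 30 genes the 3 knockdown values did not overlap the 3 scrambled values, against 65.2% of all genes. These 20 were the 16 higher genes, the 3 lower genes and SC5D.

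**Figure D1:**
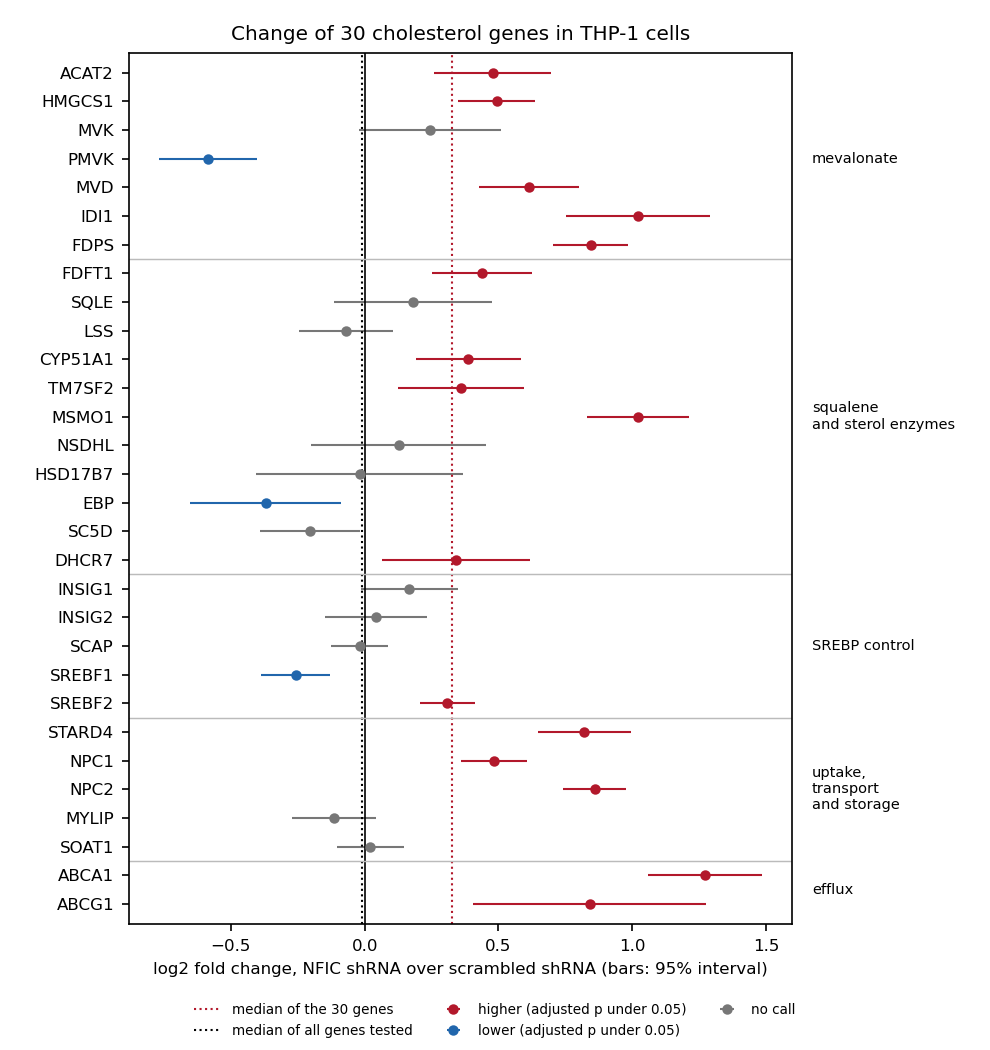
Log2 fold change of each of the 30 genes (x axis, NFIC shRNA over scrambled shRNA), with points as edgeR estimates, bars as 95% intervals and genes grouped by role. Red points (16) and blue points (3) passed the test and grey points (11) did not; dotted lines mark the median of the 30 genes at 0.33 and of all genes tested at -0.011.

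The samples held 20369543 to 24809720 counts each, and the biological coefficient of variation was 0.0606. NFIC counts were 911, 1019 and 904 in C1, C3 and C4 and 399, 518 and 493 in N1, N2 and N3, so the knockdown left 50.2% of the control level (log2 fold change -0.99, SE 0.072, edgeR adjusted p = 3.73e-09). All 10 monocytic AML markers on the list were measurable, and 2 of them were higher and 6 lower with knockdown. Their summed level, in CPM (counts scaled to a common library size, TMM-normalised), was 2328 to 2487 in scrambled samples and 2227 to 2300 in knockdown samples. Single markers moved more than this sum. ITGAM and LYZ rose (log2 fold change 0.99 and 0.72). CD68 and CD33 fell most (-1.01 and -0.97), and CD4, CSF1R, CEBPA and MPO fell by less (-0.71, -0.59, -0.51 and -0.26). Of 12 markers of T, B, erythroid, platelet, epithelial and fibroblast cells, 6 were in the table and 2 passed the filter, with summed levels of 6.93 to 8.69 CPM in scrambled and 3.01 to 4.16 CPM in knockdown samples. Among these markers CD3D was at 0 in all 3 scrambled samples, and COL1A1 made up much of the sum (5.22 ± 0.471 CPM in scrambled, 1.78 ± 0.252 in knockdown, mean ± SD, n = 3). The part of these markers in the values below was not tested. In these bulk samples fewer cells of a type and less RNA per cell cannot be told apart.

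C3 and N3 stood apart from the other libraries over all genes. On the second principal component, which held 7.37% of the variance against 77.2% for the first, they were at -18.0 and -20.5, and the other 4 samples were between 4.63 and 15.8. The cholesterol genes moved with this. C3 was the highest scrambled sample for 20 of the 30 genes, against 36.6% of all genes, and N3 was the highest knockdown sample for 19 of 30, against 38.3% of all genes. Both held for 15 genes. Relative to the mean of the other samples of its group, the median of the 30 genes was 0.15 higher on the log2 scale in C3 and 0.12 higher in N3, against -0.0018 and 0.0023 over all genes. With both samples left out, a setting chosen after seeing the data, 17 genes were higher and 4 lower and the median was 0.34.

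**Figure D2:**
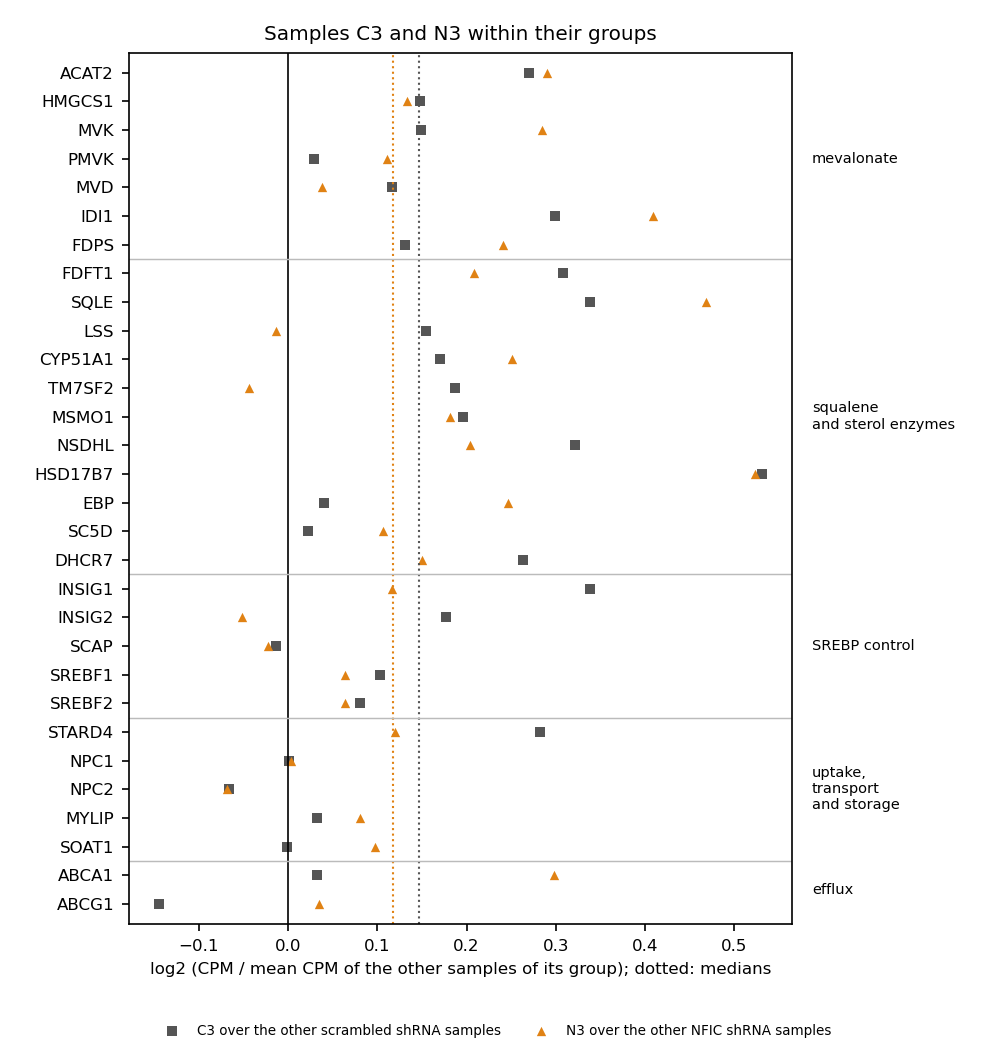
Log2 ratio of C3 (grey squares) and of N3 (orange triangles) to the mean CPM of the other samples of its group (x axis), 1 row per gene. Most points lie to the right of 0, and the dotted medians are at 0.15 for C3 and 0.12 for N3.

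The promoters are shown next because the genes that moved together can be compared in their control sequence. RefSeq promoter windows (GRCh38.p14) were at hand for 26 of the 30 genes, in 33 windows, and the 250 bases upstream of each start were searched on both strands. The windows of ACAT2, FDFT1, SQLE and ABCG1 were not analysed here. The CCAAT box, which NF-Y binds (CCAAT, or ATTGG on the other strand), was present for 19 of 26 genes (73.1%), against 37.0% of 27305 genes. The Sp1 box (GGGCGG) was present for 25 of 26 (96.2%), against 46.2%, and the E-box (CACGTG) for 4 of 26 (15.4%), against 7.73%. The 27305 genes were not limited to the 19182 genes tested here, and the share of each motif among expressed genes was not measured. The half-site of NFI proteins (TTGGCA), which can overlap a CCAAT box read on the other strand, was present for 3 of 26, namely DHCR7, NPC1 and SOAT1 (11.5%), against 13.02%. The letters TCACNCCAC, a form of the sterol regulatory element bound by SREBP, were present for SREBF2 alone (3.85%, against 1.09%). Of the 19 genes with a CCAAT box 10 were higher with knockdown, and of the 7 without one 3 were higher. Over all genes tested 29.6% were higher, and the share among those with or without the box was not measured. Whether the rise went with the box was not tested. The windows with the most CCAAT boxes, 5 each, were those of MVK and NSDHL, which did not pass the test. MSMO1, with 4, rose. Of the genes with 3 in a window, MVD, IDI1 and FDPS rose and EBP fell. The 200 bases before the start are printed for SREBF2, with capitals marking the sterol regulatory element and CCAAT boxes, and for 4 more genes chosen after their values were seen: MSMO1, FDPS and STARD4, which rose and hold several CCAAT boxes, and ABCA1, which rose and holds none.
SREBF2: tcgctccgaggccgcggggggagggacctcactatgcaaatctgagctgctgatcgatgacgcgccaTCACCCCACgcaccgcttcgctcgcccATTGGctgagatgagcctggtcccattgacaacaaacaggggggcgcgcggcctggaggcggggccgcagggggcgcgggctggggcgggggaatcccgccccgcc
MSMO1: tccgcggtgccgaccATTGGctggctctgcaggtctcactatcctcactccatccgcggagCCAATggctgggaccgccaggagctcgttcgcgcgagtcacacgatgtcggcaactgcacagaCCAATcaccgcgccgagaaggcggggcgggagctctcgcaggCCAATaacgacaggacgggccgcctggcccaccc
FDPS: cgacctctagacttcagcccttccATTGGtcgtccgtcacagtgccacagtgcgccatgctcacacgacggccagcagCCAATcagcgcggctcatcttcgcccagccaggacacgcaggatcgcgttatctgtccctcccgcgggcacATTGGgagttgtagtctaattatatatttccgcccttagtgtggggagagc
STARD4: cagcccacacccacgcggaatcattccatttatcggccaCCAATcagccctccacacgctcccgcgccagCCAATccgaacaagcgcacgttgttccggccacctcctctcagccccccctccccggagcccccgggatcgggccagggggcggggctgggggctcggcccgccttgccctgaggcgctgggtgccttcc
ABCA1: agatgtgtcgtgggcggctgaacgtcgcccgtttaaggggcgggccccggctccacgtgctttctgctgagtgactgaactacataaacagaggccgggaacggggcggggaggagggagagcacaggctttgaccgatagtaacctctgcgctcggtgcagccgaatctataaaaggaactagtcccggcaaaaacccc
In order, these lie at chr22:41832905-41833104 (plus strand), chr4:165327469-165327668 (plus), chr1:155308666-155308865 (plus), chr5:111512536-111512735 (minus) and chr9:104928156-104928355 (minus). SREBF2 carries the sterol regulatory element 133 bases before the start and 1 CCAAT box 106 bases before it. MSMO1 carries 4 CCAAT boxes, 34 to 185 bases before the start, FDPS carries 3, 51 to 176 bases before it, and STARD4 carries 2, 130 and 161 bases before it. A match is a description of the letters and not of bound protein.

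The mevalonate enzymes had 5 higher members and 1 lower member of 7, with a median log2 fold change of 0.49. Over all genes tested 29.6% were higher and 30.3% lower. Levels are given in CPM along the pathway, and values in brackets without a unit are log2 fold changes. ACAT2, the cytosolic thiolase that opens the pathway, was at 51.6, 58.6 and 45.6 in C1, C3 and C4 and at 70.5, 64.3 and 82.4 in N1, N2 and N3 (log2 fold change 0.48, SE 0.10, edgeR adjusted p = 0.00138). HMGCS1, which makes HMG-CoA, was at 39.3, 42.3 and 37.0 in controls and 53.2, 54.8 and 59.2 in knockdown samples (0.49, SE 0.068, edgeR adjusted p = 7.24e-06). For both enzymes every knockdown sample was above every control, and N3 was the highest. Exon bases shared with other annotated genes, 22.2% for ACAT2 and 37.7% for HMGCS1, leave part of their reads uncertain in origin.

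Mevalonate itself is then phosphorylated by MVK and PMVK, of which MVK did not pass the test and PMVK fell. MVK levels were 8.55, 8.57 and 6.91 CPM in scrambled and 9.31, 8.40 and 10.8 CPM in knockdown samples, and the groups overlapped (log2 fold change 0.24, 95% interval -0.022 to 0.51, edgeR adjusted p = 0.105, and 0.0422 with N2 left out). PMVK (phosphomevalonate kinase, chr1:154924740-154936719, minus strand) was at 23.7, 22.5 and 20.4 CPM in scrambled samples and fell to 14.5, 14.3 and 15.6 CPM (-0.59, SE 0.087, edgeR adjusted p = 1.61e-05). It was the only mevalonate enzyme that fell, by 1.502-fold, and its knockdown samples lay close together.

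The 3 enzymes that follow PMVK all rose. MVD, which decarboxylates mevalonate diphosphate, was at 12.2, 13.5 and 12.8 CPM in scrambled and 18.2, 20.7 and 19.98 CPM in knockdown samples (0.61 on the log2 scale, SE 0.089, edgeR adjusted p = 1.31e-05). IDI1 (chr10:1039152-1049119, minus strand), the isomerase that supplies dimethylallyl diphosphate, was at 31.0, 39.0 and 32.4 CPM and 65.2, 59.8 and 83.0 CPM, a 2.03-fold increase with a 95% interval of 0.75 to 1.29 on the log2 scale and an edgeR adjusted p of 2.51e-05. FDPS (chr1:155308748-155320666, plus strand), which makes farnesyl diphosphate, was at 112, 121 and 109 CPM and 196, 191 and 229 CPM, a 1.80-fold increase (SE 0.066 on the log2 scale, edgeR adjusted p = 1.46e-08). None of these groups overlapped. IDI1 had the widest spread of the 3 in knockdown cells, with N3 well above N1 and N2. GENCODE 44 lists 3 pseudogenes named after IDI1 and 8 named after FDPS, so reads of near-identical copies leave their counts uncertain.

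Of the 11 squalene and sterol enzymes 5 were higher, 1 was lower and 5 did not pass, and the median log2 fold change was 0.18. The shares over all genes tested were 29.6% higher and 30.3% lower. FDFT1, squalene synthase and the first committed step, was at 93.2, 112 and 87.2 CPM in scrambled and 126, 125 and 145 CPM in knockdown samples (0.44, SE 0.086, edgeR adjusted p = 0.000667). The next enzyme, squalene epoxidase SQLE, was at 21.4, 27.7 and 22.4 CPM and 23.9, 24.0 and 33.2 CPM, and C3 was above N1 and N2 (0.18, 95% interval -0.11 to 0.47, edgeR adjusted p = 0.267). LSS, which closes the rings to lanosterol, was at 17.8, 19.5 and 17.3 CPM and 17.3, 17.5 and 17.2 CPM, with overlapping groups and a 95% interval of -0.24 to 0.11 (edgeR adjusted p = 0.494).

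MSMO1 (chr4:165327667-165343164, plus strand), the oxidase that removes methyl groups from the sterol ring, had the largest rise of the sterol enzymes. Its levels were 13.2, 14.9 and 12.8 CPM in C1, C3 and C4 and 25.5, 27.5 and 30.03 CPM in N1, N2 and N3, a 2.03-fold increase (1.02 on the log2 scale, SE 0.090, edgeR adjusted p = 3.70e-08). The enzymes that complete the same demethylation did not pass: NSDHL had a log2 fold change of 0.13 (95% interval -0.20 to 0.46, edgeR adjusted p = 0.495) and HSD17B7 of -0.019 (95% interval -0.41 to 0.37, edgeR adjusted p = 0.936). In HSD17B7, C3 and N3 were the high samples, at 6.95 and 6.85 CPM against 4.32 to 5.22 CPM in the other 4, and 2 pseudogenes carry its name. CYP51A1, lanosterol demethylase, was higher at 28.7, 31.5 and 35.8 CPM than the 21.5, 26.4 and 25.4 CPM of the scrambled samples (0.39, SE 0.092, edgeR adjusted p = 0.00168). Of its annotated exon bases 74.1% are shared with AKAP9, CYP51A1-AS1 and other genes and it has 3 pseudogenes, and since a strand setting for the counting is not given, its counts are uncertain.

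Of the remaining sterol enzymes TM7SF2 and DHCR7 rose, EBP fell and SC5D did not pass. TM7SF2, a sterol reductase, was at 7.49, 8.41 and 7.29 CPM in scrambled and 10.7, 9.44 and 9.75 CPM in knockdown samples (0.36, SE 0.11, edgeR adjusted p = 0.0103), and the call was lost without C4 (adjusted p = 0.0526) or N1 (0.0511). DHCR7, the reductase that yields cholesterol, was at 5.09, 6.14 and 5.14 CPM and 6.55, 6.81 and 7.41 CPM (0.34, SE 0.13, edgeR adjusted p = 0.0330). EBP, the sterol isomerase, fell from 6.61, 7.72 and 8.41 CPM to 5.43, 5.60 and 6.54 CPM (-0.37, SE 0.13, edgeR adjusted p = 0.0243). In all 3 genes the groups did not overlap, but the gap between them was narrow. The DHCR7 call was lost without C1 (adjusted p = 0.114), C4 (0.113) or N3 (0.0986), with upper-quartile normalization (0.0697) and with DESeq2 (0.0949). The EBP call was lost without C3 (0.0528), C4 (0.112), N1 (0.0965) or N2 (0.0697) and with DESeq2 (0.0956), and 36.4% of its exon bases are shared with another gene. SC5D, the desaturase before DHCR7, was at 20.9, 20.4 and 19.2 CPM in scrambled and 18.5, 15.7 and 18.4 CPM in knockdown samples (-0.20, SE 0.088, edgeR adjusted p = 0.0542, and 0.0373 without N3). It was the single uncalled gene of the 30 whose groups did not overlap.

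Added together, the 18 synthesis enzymes were at 495, 561 and 478 CPM in C1, C3 and C4 and at 700, 686 and 816 CPM in N1, N2 and N3. All 3 knockdown sums were above all 3 scrambled sums, and the ratio of the means was 1.43. The mevalonate enzymes gave a ratio of 1.58 and the squalene and sterol enzymes of 1.26. Genes with high CPM weigh most in these sums, which are not per length. FDPS, the highest mevalonate enzyme, went from a mean of 114 to 205 CPM. FDFT1, the highest of the squalene and sterol enzymes, went from 97.4 to 132 CPM. Of the 18 enzymes 10 were higher and 2 lower, with a median log2 fold change of 0.35. The shares over all genes tested were 29.6% higher and 30.3% lower.

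**Figure D3:**
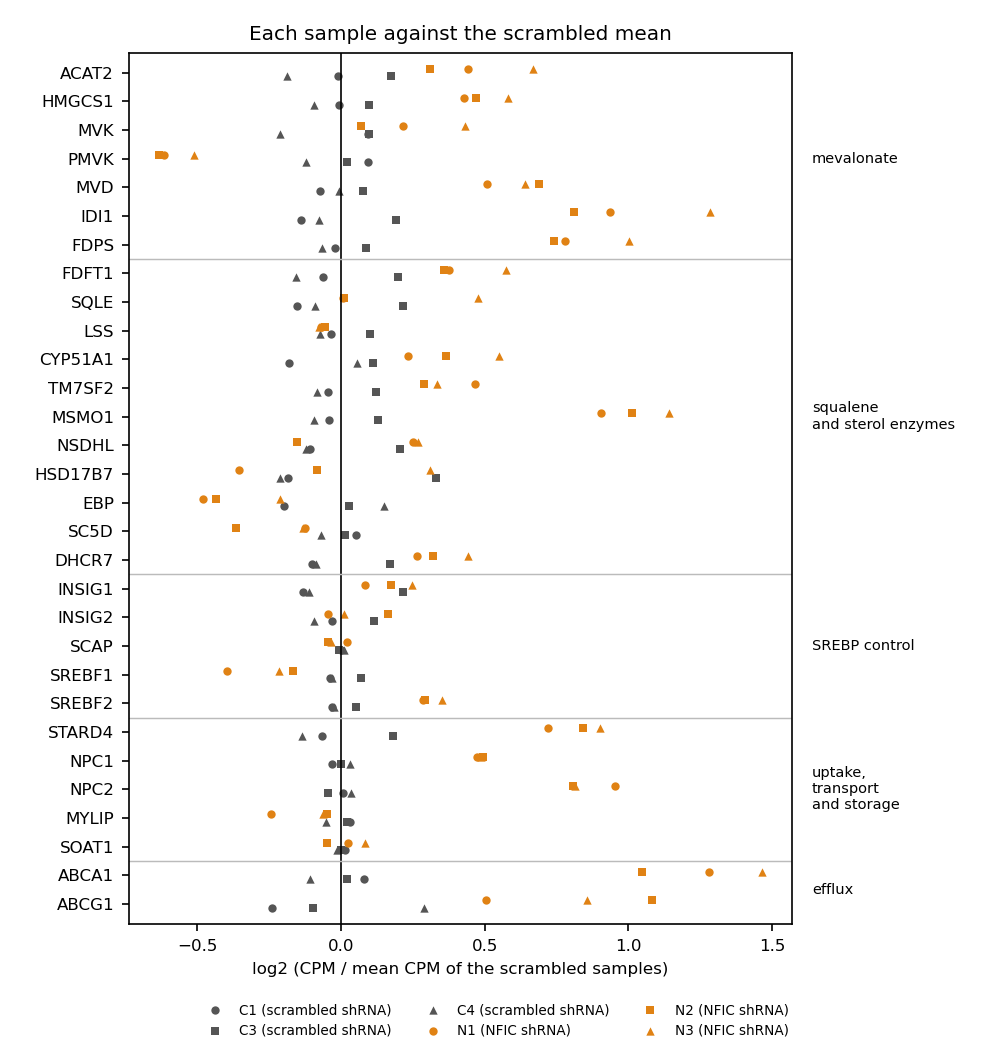
Log2 ratio of each sample's CPM to the mean of the 3 scrambled samples (x axis), 1 row per gene and 1 symbol per sample, grey for scrambled shRNA and orange for NFIC shRNA. For IDI1, FDPS, MSMO1, STARD4, NPC2 and ABCA1 all orange points lie far to the right of the grey ones, for PMVK they lie to the left, and for SCAP, SOAT1 and INSIG2 the groups overlap.

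Among the genes that control SREBP, 1 of 5 rose and 1 fell, and they were the genes of the SREBP proteins themselves. SREBF2 (chr22:41833105-41907306, plus strand) encodes SREBP2, the factor most tied to cholesterol genes, and was at 272, 289 and 274 CPM in scrambled and 339, 340 and 355 CPM in knockdown samples. The increase of 1.24-fold was small but exceeded the spread of both groups (log2 fold change 0.31, SE 0.048, edgeR adjusted p = 3.14e-05). SREBF1 (chr17:17810399-17837002, minus strand), whose product is more tied to fatty acid genes, fell from 120, 129 and 121 CPM to 93.7, 110 and 106 CPM (-0.26, SE 0.061, edgeR adjusted p = 0.00157). N1 was the lowest of all 6 samples for SREBF1. The ratio of SREBF1 to SREBF2, taken from the deposited FPKM so that it is per length, was 0.405, 0.411 and 0.404 in controls and 0.254, 0.296 and 0.275 in knockdown samples. The groups did not overlap, and the two-sided exact permutation p was 0.1, the smallest that 3 against 3 samples can give.

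INSIG1, itself a classical SREBP target, was at 37.9, 48.2 and 38.4 CPM in scrambled and 43.95, 46.8 and 49.2 CPM in knockdown samples. C3 was above N1 and N2, and the difference did not pass (0.17, 95% interval -0.013 to 0.35, edgeR adjusted p = 0.1003), while without C3 it passed at 0.29 with adjusted p = 0.00289. INSIG2, its paralog, had a log2 fold change of 0.043 (95% interval -0.15 to 0.23, edgeR adjusted p = 0.698), and the ratio of INSIG1 to INSIG2 in FPKM overlapped between groups (2.61 ± 0.185 in scrambled, 2.86 ± 0.223 in knockdown, exact permutation p = 0.2). SCAP, the escort protein, was at 109, 109 and 110 CPM and 111, 106 and 107 CPM, and its interval of -0.12 to 0.086 on the log2 scale held it within a narrow range around no change (edgeR adjusted p = 0.761).

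Of the 5 genes of uptake, transport and storage, 3 rose and none fell, with a median log2 fold change of 0.48. Over all genes tested 29.6% were higher and 30.3% lower. These 5 genes include no lipoprotein receptor, and the 3 that rose act in sterol transport inside the cell. STARD4 (chr5:111496033-111512590, minus strand), a carrier that moves sterol through the cytosol, was at 26.4, 31.4 and 25.2 CPM in scrambled and 45.5, 49.6 and 51.7 CPM in knockdown samples (1.77-fold, log2 fold change 0.82, SE 0.082, edgeR adjusted p = 1.87e-07). NPC2 (chr14:74476192-74494177, minus strand), which binds cholesterol in the lysosome lumen, was at 70.0, 67.5 and 71.4 CPM and 135, 122 and 122 CPM (1.81-fold, 0.86, SE 0.057, edgeR adjusted p = 1.09e-09). NPC1, the membrane protein that receives cholesterol from NPC2, was at 39.4, 40.3 and 41.1 CPM and 55.9, 56.7 and 56.4 CPM (1.40-fold, 0.48, SE 0.059, edgeR adjusted p = 1.72e-06). The groups were well separated for all 3, and for NPC1 the SD within each group was below 1 CPM. NPC2 was lowest in C3 among the scrambled samples. NPC2 had the larger fold change, and the NPC1 to NPC2 ratio in FPKM went from 0.164 ± 0.00483 to 0.127 ± 0.00795 (SD, n = 3), without overlap and with an exact permutation p of 0.1.

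MYLIP and SOAT1 did not pass. MYLIP, a ubiquitin ligase that directs lipoprotein receptors to degradation and an LXR target, was at 30.1, 29.9 and 28.4 CPM in scrambled and 24.9, 28.5 and 28.2 CPM in knockdown samples (-0.11, 95% interval -0.27 to 0.044, edgeR adjusted p = 0.199). SOAT1, the enzyme that esterifies cholesterol for storage, was at 53.9, 53.3 and 52.8 CPM and 54.2, 51.6 and 56.6 CPM (0.020, 95% interval -0.10 to 0.15, edgeR adjusted p = 0.783). The knockdown values of SOAT1 lay on both sides of the scrambled values.

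Both efflux transporters rose. ABCA1 (chr9:104781006-104928155, minus strand), which loads cholesterol onto lipid-poor apolipoprotein, had counts of 323, 353 and 281 in C1, C3 and C4 and 707, 677 and 900 in N1, N2 and N3, or 14.9, 14.3 and 13.1 CPM and 34.3, 29.2 and 39.0 CPM. This was the largest fold change of the 30 genes, 2.42-fold (1.27 on the log2 scale, 95% interval 1.06 to 1.48, SE 0.10, edgeR adjusted p = 1.36e-08). ABCG1 (chr21:42199689-42297244, plus strand), which exports cholesterol to mature lipoprotein, was scarce, with counts of 35, 44 and 50 in scrambled and 56, 94 and 80 in knockdown samples. Its 1.79-fold increase was less precise (0.84, 95% interval 0.41 to 1.28, edgeR adjusted p = 0.00201), although no knockdown value, at 2.72, 4.05 and 3.47 CPM, was below a scrambled value, at 1.62, 1.79 and 2.34 CPM. The ABCA1 to ABCG1 ratio in FPKM was 4.14 ± 0.998 in scrambled and 5.63 ± 1.53 in knockdown samples, and the groups overlapped (exact permutation p = 0.3).

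Levels can be compared between genes only per length, and the deposited FPKM gave this order in the scrambled samples (mean ± SD, n = 3). SREBF2 was highest at 36.4 ± 1.21 FPKM, followed by FDPS at 30.3 ± 1.66, NPC2 at 25.0 ± 0.727 and PMVK at 21.9 ± 1.58. ACAT2 (19.4 ± 2.42), FDFT1 (18.5 ± 2.41) and SCAP (17.2 ± 0.136) came next and did not differ beyond their spread. The lowest were DHCR7 (1.29 ± 0.141), ABCA1 (1.24 ± 0.0772), MVK (1.22 ± 0.142) and HSD17B7 (1.14 ± 0.256), which also lay within each other's spread, and ABCG1 at 0.309 ± 0.0614. With knockdown the top of the order became FDPS (55.2 ± 5.85), with NPC2 (45.9 ± 2.46) and SREBF2 (45.5 ± 1.48) indistinguishable behind it, and PMVK dropped to 14.7 ± 0.762. ABCA1 moved from the low end to 3.03 ± 0.450 FPKM.

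**Figure D4:**
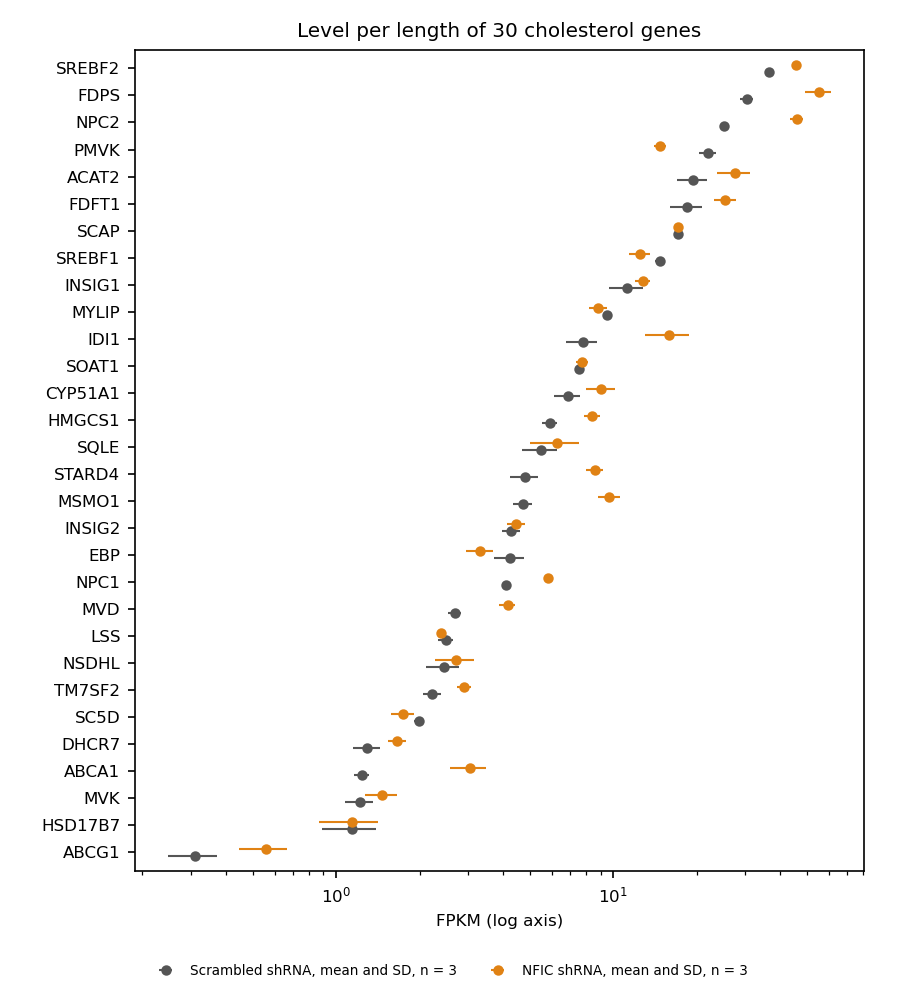
Deposited FPKM of the 30 genes on a log axis, ordered by the scrambled mean, with points as means and bars as SD over 3 samples (grey scrambled shRNA, orange NFIC shRNA). Levels run from 0.309 FPKM for ABCG1 to 36.4 FPKM for SREBF2 in scrambled samples, and the orange points of FDPS, NPC2, IDI1, MSMO1 and ABCA1 lie clearly to the right.

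Genes around the pathway were taken from 7 lists of 72 genes, of which 65 passed the filter, 31 were higher and 18 lower, against 29.6% higher and 30.3% lower over all genes tested. In the isoprenoid branch, fed by farnesyl diphosphate, 6 of 12 were higher and 4 lower. COQ2, of coenzyme Q synthesis, rose (0.66 on the log2 scale, edgeR adjusted p = 2.90e-06), as did PGGT1B, a subunit of a prenyltransferase (0.33, edgeR adjusted p = 0.000340). RABGGTB, of Rab prenylation, fell (-0.49, edgeR adjusted p = 9.55e-07). Prenylation genes thus moved in both directions. Of 8 genes of SREBP cleavage and ER degradation 5 were higher and 1 lower. ERLIN2 and ERLIN1, ER membrane proteins that bind cholesterol and retain SREBP, rose by 0.99 and 0.68 on the log2 scale (edgeR adjusted p = 8.89e-11 and 3.77e-09), and UBE2G2, a ubiquitin-conjugating enzyme of ER degradation, fell (-0.18, edgeR adjusted p = 0.00445). With upper-quartile normalization 2 genes of this list were lower.

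Fatty acid synthesis, the other SREBP program, had 1 gene higher and 3 lower of 11 tested. The other 7 did not pass, and the median log2 fold change of the list was 0.0045. Over all genes tested 29.6% were higher and 30.3% lower. SCD, the fatty acid desaturase, fell from 236, 276 and 230 CPM in scrambled to 138, 155 and 164 CPM in knockdown samples (-0.70, SE 0.074, edgeR adjusted p = 1.04e-06). FASN, fatty acid synthase, fell from 313, 362 and 284 CPM to 226, 223 and 246 CPM (-0.46, SE 0.074, edgeR adjusted p = 7.58e-05). ELOVL5, an elongase, was the 1 higher gene (0.16, edgeR adjusted p = 0.0238), but its groups overlapped, with C3 at 129 CPM above N1 at 126 CPM. Of the 4 called genes 3 fell here, but 3 lower of 11 tested is near the share over all genes. Of the 12 called cholesterol synthesis enzymes 2 fell. Whether the lists differ was not tested. The count of higher genes in this list was 0 without C1, C4 or N2 and with upper-quartile normalization, and 2 without C3, and the count of lower genes was 6 without N3 and 5 with no filter on low counts.

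LXR receptors and their other targets split evenly, 4 higher and 4 lower of 8 tested, against 29.6% higher and 30.3% lower over all genes. NR1H2, LXR beta, rose from 24.7, 23.8 and 25.3 CPM to 45.8, 50.5 and 45.0 CPM (0.94, edgeR adjusted p = 5.19e-09), and NR1H3, LXR alpha, named here after its value was seen, fell (-0.35, edgeR adjusted p = 0.0105). SMPDL3A, a phosphodiesterase, rose with ABCA1, from 1.85, 2.44 and 3.50 CPM to 10.5, 12.4 and 13.05 CPM (2.21, edgeR adjusted p = 1.14e-08). APOC1, an apolipoprotein, fell from 38.5, 37.6 and 41.4 CPM to 7.28, 6.98 and 7.32 CPM (-2.44, SE 0.084, edgeR adjusted p = 6.28e-13), and PLTP, the phospholipid transfer protein, fell by 2.76-fold (-1.46, edgeR adjusted p = 1.05e-11). The rise of ABCA1 and ABCG1 was thus not shared by the whole list. The count of higher genes was 2 with upper-quartile normalization.

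Scavenger and lipoprotein receptors had 6 higher and 2 lower genes of 9 tested, against 29.6% higher and 30.3% lower over all genes. LRPAP1, a chaperone of these receptors, and VLDLR, a lipoprotein receptor, rose by 0.68 and 0.63 on the log2 scale (edgeR adjusted p = 1.59e-09 and 5.80e-09). The 2 that fell were SCARB1, the receptor for high-density lipoprotein (-0.60, edgeR adjusted p = 5.85e-07), and CD36, which binds oxidised lipoprotein, from 18.7, 16.7 and 21.0 CPM to 10.3, 10.3 and 10.5 CPM (-0.85, edgeR adjusted p = 1.06e-06). Intracellular sterol transfer had 8 higher and 3 lower of 13, against the same shares over all genes. NCEH1, a hydrolase of stored cholesteryl esters, rose from 8.83, 8.17 and 10.7 CPM to 26.1, 25.3 and 29.6 CPM (2.93-fold, 1.55, edgeR adjusted p = 1.46e-09), while the esterifying SOAT1 did not pass. GRAMD1B, which carries sterol from the plasma membrane to the ER, also rose (0.52, edgeR adjusted p = 1.25e-06), whereas STARD3NL and the oxysterol-binding protein OSBP fell (-0.63 and -0.34, edgeR adjusted p = 2.80e-07 and 9.67e-05). Of 4 oxysterol enzymes tested CYP46A1, a cholesterol hydroxylase, rose from a low level of 0.878, 0.894 and 0.701 CPM (1.49, edgeR adjusted p = 0.000125) and HSD3B7, of bile acid synthesis, fell (-0.79, edgeR adjusted p = 0.00571). The count of lower oxysterol enzymes was 2 without N2 or N3 and with no filter on low counts, and 0 with DESeq2.

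**Figure D5:**
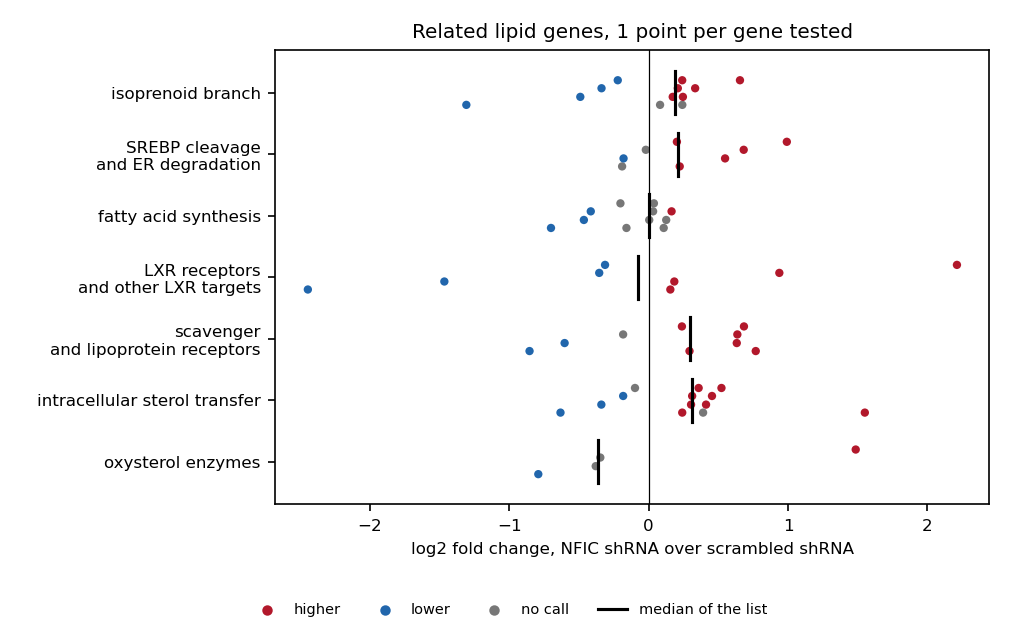
Log2 fold change (x axis, NFIC shRNA over scrambled shRNA) of the 65 tested genes of 7 related lists, 1 point per gene, red for higher, blue for lower and grey for not called, with a black bar at each list's median. APOC1 and PLTP lie furthest to the left, SMPDL3A furthest to the right, and the LXR list has points on both sides of 0.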

How the data were processed

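RNA of GFP-sorted THP-1 cells was made into libraries with a NEBNext Ultra RNA kit and sequenced paired-end on a NovaSeq. According to the submitters' processing notes and the study's methods, the authors trimmed reads with Trim Galore, checked them with FastQC, mapped them to GRCh38 with STAR and counted them per gene of Ensembl release 96 with featureCounts. Tool versions and a strand setting are not given in the sources used here. The deposited table holds raw counts, counts the authors normalised by size factors (signal) and FPKM the authors derived from the normalised counts. It also holds the authors' own DESeq2 comparison (mean, log2 fold change, its error, test statistic, p-value and adjusted p), which was not used. No column belonged to another series.

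The raw counts of 3 NFIC shRNA and 3 scrambled shRNA samples were tested with edgeR 4.0.16 (R 4.3.3; TMM, filterByExpr, robust quasi-likelihood fit without a replicate term), with p-values adjusted over the 19182 genes tested and a threshold of 0.05. CPM are counts scaled to a common total over the genes tested and normalised by TMM. SE is the log2 fold change divided by the square root of F. The deposited FPKM were used for levels and ratios, with exact permutation tests over 6 samples (scipy 1.17.1). Totals were 20369543 to 24809720 counts, and no pair of replicates agreed within sampling noise. Gene positions, shared exons and pseudogenes came from GENCODE 44, promoters from RefSeq (GRCh38.p14).

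The 30 genes, the related lists and the tests were chosen with earlier results of these data known. The text names all 30 genes, NFIC, markers, and up to 2 genes in each direction with the smallest adjusted p per related list. 1 of these genes is not reported here. Alternatives were DESeq2 1.42.0 and its size factors, upper-quartile and total-count scaling, no filter, at least 10 counts in every sample, limma 3.58.1 on log2(normalised count + 1), a replicate block, and each sample left out.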

Additional observations from a re-analysis of the deposited data

How the results depend on the processing

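Under the 16 alternatives the number of the 30 genes called higher ran from 14 to 18 and the number called lower from 2 to 4, and 20 of the 30 genes kept their call and direction under all of them. Of the 19 called genes 16 did so, the exceptions being DHCR7, EBP and TM7SF2. With 1 sample left out the counts were 14 to 17 higher and 2 to 4 lower, and the median log2 fold change of the 30 genes was 0.29 to 0.38. The direction of uncalled genes turned in 9 cases: INSIG2 to -0.013 and SOAT1 to -0.037 with upper-quartile normalization, HSD17B7 to 0.18 without C3, 0.12 without N1 and 0.021 without N2, INSIG2 to -0.0048 without C4 and -0.016 without N2, and SOAT1 to -0.0090 without N3 and -0.016 without C3 and N3. With 1 sample left out HSD17B7 ranged from -0.21 to 0.18, INSIG2 from -0.016 to 0.10 and SOAT1 from -0.0090 to 0.058. The cause was not tested. SC5D passed with upper-quartile normalization (adjusted p = 0.0162), with at least 10 counts in every sample (0.0405) and without C3 and N3 (0.0372), and INSIG1 with no filter on low counts (0.0445) and without C3 and N3 (0.00150). Replicate numbers did not pair the samples: same-numbered samples correlated at 0.0563, -0.0862 and -0.0446 in their deviations from the group means. With the replicate block 16 genes were higher and 3 lower, and 10983 genes were called over the whole table, against 11486 without it. Another replicate block joined C1 with N1 and C3 with N3 by the numbers in their names, and C4 with N2 as the samples left. The labels do not define this pairing. In their deviations from the group means these pairs correlated at 0.0563, 0.145 and 0.0267. With this block 18 of the 30 genes were higher and 4 lower. Over the whole table it called 12099 genes (63.1%), against 59.9% without a block. The genes gained in the list were SQLE (edgeR adjusted p = 0.0369), INSIG1 (0.0170) and SC5D (0.0308). Not every sample correlated best with its own number. Upper-quartile normalization moved the median of all genes to -0.068. Low counts limit ABCG1 most, and the precision of every difference is that of 3 samples against 3.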
